A study of Mus musculus with 16 samples.

Results

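Many mouse genes still carry a placeholder name, either Gm with a number, given to gene models, or a symbol ending in Rik, given to cDNA clones. The genes described here were chosen by 3 criteria: a symbol of 1 of these 2 kinds, a position on chromosomes 1-19, and a mean of at least 10 RPKM (reads per kilobase of transcript, scaled to sequencing depth) in the 2 RNA libraries of 60-65 µm oocytes. Of 25965 genes in the table, 5798 on chromosomes 1-19 had such a symbol and 131 met the threshold, 63 with a Gm number and 68 with a Rik symbol. They made up 2.26% of the placeholder genes, whereas 1750 of 18685 genes with other symbols on these chromosomes (9.37%) reached 10 RPKM. The 60-65 µm levels selected the genes and are given as a description without a test. Just outside the threshold lay D930015E06Rik (mean 9.51 RPKM), 0610007L01Rik (9.58 RPKM) and A430005L14Rik (9.94 RPKM). Just inside it lay 2410022L05Rik (10.02 RPKM), 2810474O19Rik (10.04 RPKM) and 4933411K20Rik (10.17 RPKM).

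All samples were pools of untreated wild-type mouse oocytes, and those of growing oocytes were sorted by diameter. The strain is labelled C57BL/6 and given as C57BL/6Babr in the study's methods. By those methods the mice were in the first to the third postnatal week and older for larger oocytes, so size and age cannot be told apart. RNA was sequenced in duplicate (A and B) at 60-65, 50-55, 40-45 and 10-30 µm and in 1 column of fully grown germinal vesicle (GV) oocytes. DNA methylation was measured by reduced representation bisulphite sequencing (RRBS, which enriches CpG-rich fragments) in duplicate at each size but the smallest, and by whole-genome post-bisulphite adaptor tagging (PBAT) in 1 library at 60-65 µm. Nothing in the labels ties the duplicates to separate animals, so p-values measure the spread between these libraries, which may be technical. The 13 oocyte markers summed to between 2860 and 4090 RPKM in every RNA library, and each of the 13 reached 10 RPKM in at least 1 library. No marker of granulosa cells, of theca and stroma, or of endothelium and blood reached 10 RPKM. The 11 granulosa markers summed to 2.17 to 9.76 RPKM, lowest at 10-30 µm and highest in GV oocytes. Nr5a2 (5.56 RPKM), Cyp19a1 (2.53 RPKM), Kitl (0.907 RPKM) and Fshr (0.286 RPKM) were each highest in GV oocytes. The rest, Foxl2 among them, were highest in a 50-55 or 60-65 µm library and stayed at or below 0.542 RPKM. The 8 theca and stroma markers summed to 0.464 to 3.19 RPKM and were highest at 10-30 µm. The 7 endothelial and blood markers in the table summed to 0.634 to 5.88 RPKM, lowest at 10-30 µm and highest in GV oocytes, where Pecam1 had 5.68 RPKM. No marker was at 0 in all libraries. Their part in the changes below was not tested. In pooled cells, fewer cells carrying a transcript and less of it per cell cannot be told apart.

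A growing oocyte accumulates and stores mRNA for the egg and early embryo, because transcription stops around the time the oocyte reaches full size. De novo DNA methylation is laid down in the same period, mainly over transcribed gene bodies, while most active CpG-rich promoters stay unmethylated. Placeholder names cover several kinds of gene in this cell: oocyte-specific families that were named late, long non-coding RNAs, and processed pseudogenes, which are intronless copies of mRNAs inserted elsewhere in the genome.

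By the RefSeq gene type, or the GENCODE type for the 22 genes that RefSeq did not match, 83 were protein-coding, 21 long non-coding RNAs and 24 pseudogenes, and 3 (Gm12521, Gm7919 and Gm11678) were matched by neither. RefSeq now lists 65 of the 131 under another symbol, 46 of them Rik and 19 Gm genes. Several of the new names are of known oocyte genes. 2410004A20Rik is Khdc3, a component of the subcortical maternal complex, 4921513D23Rik is Marf1, a meiosis regulator, Gm97 is Oosp3, an oocyte-secreted protein, and Gm4745 is Obox7, a member of an oocyte homeobox family. Gm13023, Gm13084 and Gm13103 are Pramel25, Pramel26 and Pramel27, of the PRAME-like family. The genes spanned 306 to 159348 bp, with median lengths of 12505 bp for the protein-coding genes, 2570 bp for the long non-coding RNAs and 641 bp for the pseudogenes.

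Promoters are shown for a run of 3 neighbouring genes and for Gm813, Gm4745 and Gm15698, all of which rose as described below. They were picked after their values were seen and are not the 6 largest rises. The sequences are from RefSeq on GRCm38.p6, from 250 bases before to 50 after the annotated start. The windows are chr4:143789084-143789383 (plus strand) for Gm13023, chr4:143816044-143816343 (minus strand) for Gm13084, chr4:143846247-143846546 (plus strand) for Gm13103, chr16:58616929-58617228 (minus strand) for Gm813, chr7:14659458-14659757 (plus strand) for Gm4745 and chr11:88966882-88967181 (minus strand) for Gm15698. Capitals mark matches on either strand to CANNTG (the E-box, read by factors such as Figla), TATAAA (the TATA box) and TAATTG (a homeobox-type motif of the kind bound by Nobox).
Gm13023: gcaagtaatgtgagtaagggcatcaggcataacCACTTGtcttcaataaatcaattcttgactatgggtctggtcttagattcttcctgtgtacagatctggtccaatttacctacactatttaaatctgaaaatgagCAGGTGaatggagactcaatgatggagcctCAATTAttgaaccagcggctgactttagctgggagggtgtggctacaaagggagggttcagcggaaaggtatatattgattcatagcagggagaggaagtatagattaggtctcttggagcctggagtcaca
Gm13084: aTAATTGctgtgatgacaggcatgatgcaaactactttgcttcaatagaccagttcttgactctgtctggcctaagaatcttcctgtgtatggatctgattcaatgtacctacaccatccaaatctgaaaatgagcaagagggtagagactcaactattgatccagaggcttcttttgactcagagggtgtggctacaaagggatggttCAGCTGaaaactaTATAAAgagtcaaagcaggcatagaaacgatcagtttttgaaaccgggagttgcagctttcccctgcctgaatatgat
Gm13103: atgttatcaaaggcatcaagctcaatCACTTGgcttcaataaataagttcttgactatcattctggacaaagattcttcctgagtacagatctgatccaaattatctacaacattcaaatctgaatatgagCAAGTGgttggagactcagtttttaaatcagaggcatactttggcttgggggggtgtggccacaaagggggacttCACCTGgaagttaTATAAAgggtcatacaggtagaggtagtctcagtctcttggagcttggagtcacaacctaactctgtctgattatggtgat
Gm813: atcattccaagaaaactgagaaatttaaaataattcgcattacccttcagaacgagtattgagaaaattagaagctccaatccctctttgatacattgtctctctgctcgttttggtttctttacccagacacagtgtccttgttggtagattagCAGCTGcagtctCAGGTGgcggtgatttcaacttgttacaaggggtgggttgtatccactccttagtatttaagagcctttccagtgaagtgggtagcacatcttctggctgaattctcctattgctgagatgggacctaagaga
Gm4745: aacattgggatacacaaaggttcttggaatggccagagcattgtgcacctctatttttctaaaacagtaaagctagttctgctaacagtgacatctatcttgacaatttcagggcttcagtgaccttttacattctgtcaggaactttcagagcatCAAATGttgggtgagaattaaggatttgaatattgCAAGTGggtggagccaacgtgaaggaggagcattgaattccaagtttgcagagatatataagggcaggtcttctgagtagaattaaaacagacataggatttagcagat
Gm15698: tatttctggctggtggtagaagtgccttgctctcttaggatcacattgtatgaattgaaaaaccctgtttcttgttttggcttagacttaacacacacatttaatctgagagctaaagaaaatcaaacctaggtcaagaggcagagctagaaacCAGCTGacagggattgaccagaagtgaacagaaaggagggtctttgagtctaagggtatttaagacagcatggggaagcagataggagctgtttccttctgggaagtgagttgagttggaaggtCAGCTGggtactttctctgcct
CANNTG occurred in all 6 windows, as it did in 72.3% of all 32851 promoter windows and in 61 of 81 windows of the genes described here (75.3%). TATAAA occurred in Gm13084 and Gm13103, against 13.6% of all windows and 13.6% of those of these genes. TAATTG occurred in Gm13023 and Gm13084, against 8.0% of all windows and 7.41% of those of these genes. The 3 neighbours held 2, 2 and 0 CpG sites, and the 81 windows had a median of 13 CpG sites against 7 over all windows. RefSeq promoters were matched for 75 of the 131 genes, and a match to these letters is a description of the sequence and not of binding.

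The levels spanned a wide range. At 60-65 µm the median was 17.6 RPKM, 73 genes lay below 20 RPKM and 15 at or above 100 RPKM. The long non-coding RNA Gm16211 had the highest level of the whole table and supplied 44.5% of the summed RPKM of the 131 genes. It is 1 of the 47 genes with close copies elsewhere (described below) and has 10 of them, so its reads may not all belong to 1 locus. It had 95.8% identity to a transcript of Ccdc82 over 60.3% of its own. Ccdc82 had a mean of 0.543 RPKM at 60-65 µm, and the levels of the other copies were not compared. The level of Gm16211 was 4335 and 3118 RPKM at 10-30 µm, 4800 and 3790 at 40-45 µm, 4034 and 3700 at 50-55 µm, 3756 and 3814 at 60-65 µm and 3609 in GV oocytes. The size classes overlapped, and the change from 10-30 to 50-55 µm was 0.15 ± 0.23 on the log2 scale (SE, adjusted p = 0.618). Without 10-30 µm library B that change became -0.12. The next highest were Gm15698 (Elobl, an elongin B-like gene), at 237 and 273 RPKM at 60-65 µm, and 3 long non-coding RNAs. Gm15698 rose by 0.76 ± 0.13 on the log2 scale from 10-30 to 50-55 µm (adjusted p = 0.00306), its 10-30 µm libraries being at 141 and 164 RPKM. Of the long non-coding RNAs, Gm13965 had 230 and 214 RPKM, Gm20483 had 190 and 224 RPKM and A530040E14Rik had 175 and 203 RPKM. Gm13965, which overlaps Fmn1 on the same strand, and Gm20483 had changes from 10-30 to 50-55 µm of 0.29 ± 0.18 (adjusted p = 0.217) and -0.02 ± 0.15 (adjusted p = 0.927). Both of these changes failed the threshold, and that of Gm20483 turned to 0.07 without 10-30 µm library A and to 0.13 without 50-55 µm library A.

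**Figure D1:**
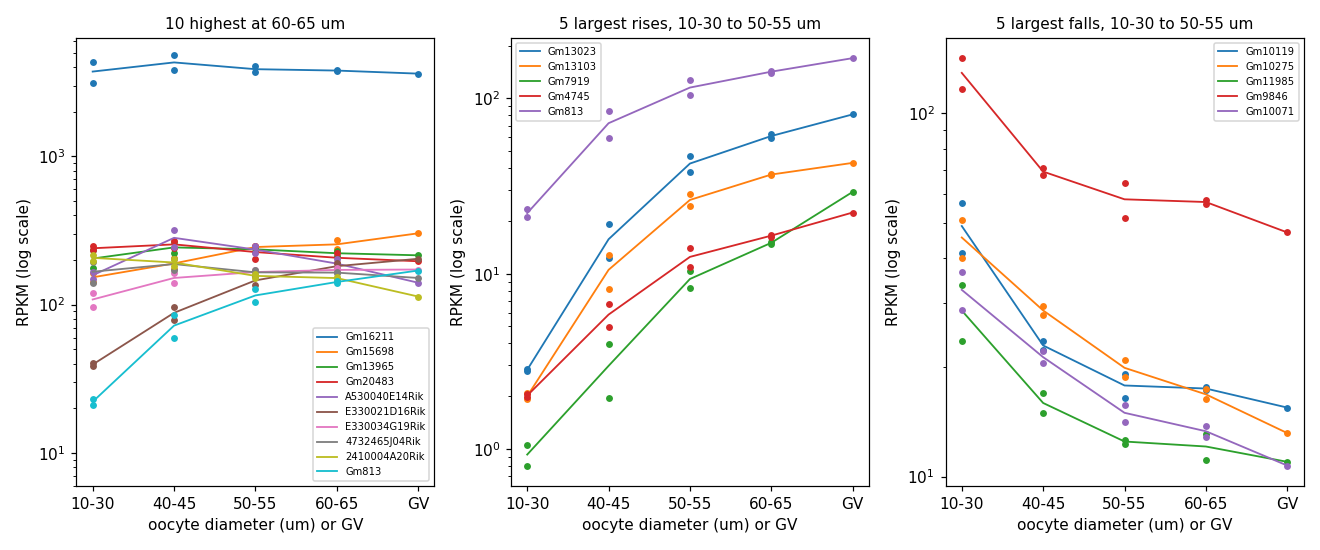
RPKM (log scale) of the 10 genes highest at 60-65 µm, the 5 largest rises and the 5 largest falls from 10-30 to 50-55 µm, by oocyte diameter. Points are libraries and lines join class means; Gm16211 lies at or above 3118 RPKM in every library, and the 2 libraries of each class lie close together beside the changes across classes in the rising genes.

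Changes during growth were tested only in the 6 libraries from 10 to 55 µm, which the choice of genes did not use. All 131 genes passed the filter on low values. From 10-30 to 50-55 µm, 57 genes rose and 31 fell, and 43 did not pass the threshold (limma, adjusted p under 0.05 over 10321 genes). Among all genes tested, 25.9% rose and 23.1% fell. A threshold on late expression favours genes that rise, so a closer reference is the 1750 other genes on these chromosomes with at least 10 RPKM at 60-65 µm, of which 718 (41.0%) rose and 241 (13.8%) fell, against 43.5% and 23.7% here. The difference between the 2 sets was not tested. The number that fell was 19 without 50-55 µm library A, and 9 among the 84 genes without a close copy elsewhere in the transcriptome (described below).

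The same test was made for each step. From 10-30 to 40-45 µm, 39 genes rose (29.8%) and 3 fell (2.29%), against 11.9% and 5.92% of all genes tested and 22.6% and 0.629% of the other genes of at least 10 RPKM. The count that rose was 10 without 40-45 µm library A and 23 without 10-30 µm library A, while the count that fell was 0 without either 40-45 µm library, 1 without 10-30 µm library A and 14 without 10-30 µm library B. Scaling between libraries added 0.12 to every log2 change of this step, and without it the split was 31 to 12. From 40-45 to 50-55 µm, 7 genes rose (5.34%) and 4 fell (3.05%), against 2.11% and 1.64% of all genes tested and 1.94% and 0.457% of the other genes of at least 10 RPKM. Without scaling this split was 10 to 1. Leaving out 40-45 µm library B or either 50-55 µm library left 0 genes in each direction, leaving out 40-45 µm library A left 3 and 0, and leaving out 10-30 µm library A or B gave 8 and 12 or 11 and 13.

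By gene type, the protein-coding genes had mostly rises and the pseudogenes mostly falls. Of the 83 protein-coding genes, 44 rose (53.0%) and 8 fell (9.64%) from 10-30 to 50-55 µm, with a median log2 change of 0.39. Of the 21 long non-coding RNAs, 8 rose (38.1%) and 7 fell (33.3%), with a median of 0.15. Of the 24 pseudogenes, 4 rose (16.7%) and 14 fell (58.3%), with a median of -0.60. Of the 14 that fell, 11 had a ribosomal protein gene as their named partner (described below), and Gm10119 (Rps3a2) was a further ribosomal copy. The 4 that rose had no such partner. Over all genes tested 25.9% rose and 23.1% fell (median 0.03), and over the other genes of at least 10 RPKM 41.0% rose and 13.8% fell (median 0.23). These counts are descriptions of the types, whose difference was not tested.

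**Figure D2:**
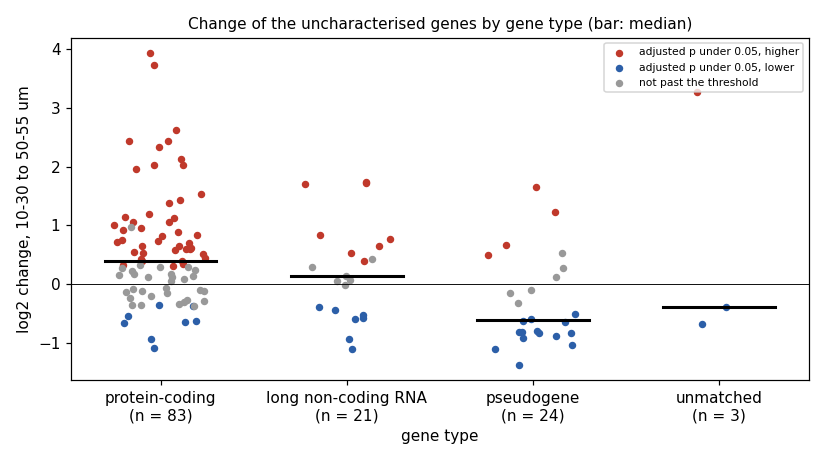
Log2 change from 10-30 to 50-55 µm of each of the 131 genes, by gene type (horizontal jitter only). Red and blue points passed the limma threshold upward and downward, grey points did not, and bars are medians, which lie above 0 for protein-coding genes and below 0 for pseudogenes.

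The 2 largest rises were in Gm13023 and Gm13103, both of the PRAME-like family. Gm13023 (Pramel25) was at 2.86 and 2.79 RPKM at 10-30 µm, 19.1 and 12.3 at 40-45 µm, 47.0 and 38.0 at 50-55 µm, 62.3 and 59.7 at 60-65 µm and 81.1 in GV oocytes. Gm13103 (Pramel27) went from 1.92 and 2.08 RPKM through 12.8 and 8.197, 28.4 and 24.3, and 36.9 and 36.6 to 42.9 in GV oocytes. In both genes no 2 successive size classes overlapped. Their log2 changes from 10-30 to 50-55 µm were 3.93 ± 0.22 and 3.72 ± 0.21 (adjusted p = 0.000148 for each). Gm13084 (Pramel26), which lies between them on the opposite strand, started higher, at 17.3 and 20.5 RPKM, and reached 103 and 101 RPKM at 60-65 µm, with a log2 change of 2.33 ± 0.15 to 50-55 µm (adjusted p = 0.000148).

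These 3 genes formed the 1 run of at least 3 within 200 kb of each other, on chromosome 4 from 143789352 (GRCm38). Within 200 kb of them the table held 8 other genes, none of which reached 10 RPKM, with a median of 0.0339 RPKM at 60-65 µm. Of these, Gm13089, Pramef17 and Gm13088 also rose from 10-30 to 50-55 µm (adjusted p = 0.000148 to 0.000381), and the other 5 stayed at or below 0.119 RPKM in every library. Gm13089 was at 0.0334 and 0.101 RPKM at 10-30 µm and 4.88 and 4.09 at 60-65 µm. Pramef17 was at 0.276 and 0.144 and then 4.08 and 3.83 RPKM, and Gm13088 was at 0.0941 and 0.1245 and then 1.99 and 2.24 RPKM. The 3 genes resemble the oogenesins, oocyte-expressed PRAME-like genes: Gm13023 shared 95.9% identity with Oog1 over 99.5% of its transcript, Gm13084 98.0% with Oog2 over 95.8%, and Gm13103 87.8% with Oog3 over 99.8%. Gm2042, on chromosome 12, shared 98.8% with Oog1, and rose by 2.44 on the log2 scale from 10-30 to 50-55 µm and had a mean of 67.8 RPKM at 60-65 µm. These relatives rose too. From 10-30 to 50-55 µm, Oog1 rose from 16.0 and 15.6 RPKM to 77.0 and 75.3 (2.33 on the log2 scale, adjusted p = 0.000148), Oog2 by 3.29 (adjusted p = 0.000148) and Oog3 by 6.46 (adjusted p = 0.00017). Reads could be placed at either copy, so the rises cannot be assigned to 1 locus with certainty. The ratio to Oog1 stayed at 0.662 to 0.723 in Gm2042 across the classes, whereas it went from 0.179 at 10-30 µm to 0.643 in GV oocytes in Gm13023.

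There were also 6 pairs within 200 kb, of which 1, on chromosome 16, is described here and was chosen after its values were seen. Gm813 and E330017A01Rik, now Ftdc1 and Ftdc2 (ferritin domain genes), are 18189 bp apart on the same strand. Gm813 went from 23.3 and 21.02 RPKM at 10-30 µm through 84.7 and 59.8 and then 127 and 104 to 144 and 140 at 60-65 µm, a log2 change of 2.44 ± 0.20 to 50-55 µm (adjusted p = 0.00025). E330017A01Rik began higher and changed less, from 65.4 and 69.2 RPKM through 103 and 103 and then 126 and 117 to 115 and 124. In GV oocytes the 2 genes stood at 170 and 134 RPKM. Of 8 other genes within 200 kb, Dcbld2 (mean 15.6 RPKM at 60-65 µm) was the 1 that reached 10 RPKM. From 10-30 to 50-55 µm Dcbld2 rose by 0.87 (adjusted p = 0.00112) and St3gal6 by 1.91 (adjusted p = 0.000361). Cpox and Cldn25 did not pass the threshold, and the rest were not tested.

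Further genes rose, among them 2 homeobox genes. Gm4745 (Obox7) rose from 2.06 and 1.98 RPKM to 13.96 and 10.98 at 50-55 µm, a log2 change of 2.63 ± 0.18 (adjusted p = 0.000176). Its relative Obox1, at 91.8% identity over 99.5% of the Gm4745 transcript, rose by 2.57 (adjusted p = 0.000148), from a mean of 12.5 to 71.3 RPKM. Gm2104 (Cphx2, a homeobox gene) rose from 1.63 and 1.24 RPKM to 7.33 and 5.26 (2.12 ± 0.27, adjusted p = 0.0011). Gm2104 overlaps Gm10394, Cphx3, Duxbl2 and Gm2274 on the same strand and has a close copy elsewhere, so its reads cannot be assigned to it with certainty. Gm7919, which no annotation matched, rose from 1.05 and 0.804 RPKM to 10.4 and 8.25 (3.26 ± 0.32, adjusted p = 0.000424). Gm97 (Oosp3) rose from 22.2 and 18.2 RPKM at 10-30 µm to 90.5 and 68.3 at 50-55 µm (2.04 ± 0.26, adjusted p = 0.00106). E330021D16Rik rose from 40.2 and 38.7 RPKM to 156 and 135 at 50-55 µm (1.95 ± 0.15, adjusted p = 0.000206). E330034G19Rik rose from 120 and 96.9 RPKM to 170 and 161 (0.70 ± 0.16, adjusted p = 0.0111), a call lost without 50-55 µm library A (adjusted p = 0.0676). In each of these 6 genes both 50-55 µm libraries lay above both at 10-30 µm, as in all 57 genes that rose. The named oocyte genes Khdc3 and Marf1 did not pass the test. 2410004A20Rik (Khdc3) was at 197 and 217 RPKM at 10-30 µm and 161 and 152 at 50-55 µm, a change of -0.33 ± 0.12 that missed the threshold (adjusted p = 0.0622). It passed without scaling (adjusted p = 0.0272) and with the 60-65 µm libraries in the fit (adjusted p = 0.0367). 2410004A20Rik overlaps Gm20509 on the same strand, which followed it from 130 and 148 RPKM to 106 and 102, and the reads of the 2 cannot be told apart where they overlap. 4921513D23Rik (Marf1) had means of 12.1 RPKM at 10-30 µm and 12.4 at 50-55 µm.

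The 5 largest falls were in 3 ribosomal protein pseudogenes, a ribosomal protein retrogene and a long non-coding RNA. Gm10119 (Rps3a2) fell from 56.6 and 41.3 RPKM to 19.2 and 16.4 at 50-55 µm, a log2 change of -1.37 ± 0.18 (adjusted p = 0.00118). Gm10275 fell from 51.0 and 40.0 RPKM to 21.01 and 18.9, and Gm10071 from 36.6 and 28.7 to 15.8 and 14.2. Gm9846 (Rps27rt) fell from 142 and 117 RPKM to 64.3 and 51.7, a change of -1.08 ± 0.16 (adjusted p = 0.00197). Gm11985 (Ccdc201) fell from 33.7 and 23.6 RPKM to 12.3 and 12.7, a change of -1.09 ± 0.19 (adjusted p = 0.00335). RefSeq types Gm11985 as non-coding and GENCODE types it as protein-coding. None of these genes overlapped between the 2 classes, which was a condition of this list and held for all 31 genes that fell.

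Sequence shared with other genes sets how far such values can be assigned to 1 locus. The RNA reads were aligned with 1 reported position per read, so reads from near-identical copies could be placed at any of them. Of the 131 genes, 47 had a transcript elsewhere of at least 80% identity over at least 50% of their own transcript, among them 22 of the 24 pseudogenes, and 31 of the 47 reached 95% over 90%. These cut-offs were set after the values were seen. From 10-30 to 50-55 µm, 15 of the 47 rose and 22 fell, or 31.9% and 46.8%, and 42 of the other 84 rose and 9 fell, or 50.0% and 10.7%. Over all genes tested 25.9% rose and 23.1% fell, and the difference between the 47 and the 84 was not tested.

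A named partner in the table was found for 12 genes like a ribosomal protein gene, 11 of them pseudogenes and the other Gm9846. All 12 fell from 10-30 to 50-55 µm, and so did all 12 partners. Of all genes tested 23.1% fell, and of the other genes of at least 10 RPKM 13.8%. Reads could be placed at either copy, so gene and partner cannot be read as independent. At 60-65 µm, 9 of the 12 stood above the partner. The genes, but not the partners, were chosen for at least 10 RPKM at this size, which favours the gene in this comparison. Gm10288 had a mean of 39.1 RPKM against 4.77 for Rpl11, Gm10275 had 16.8 against 3.45 for Rpl12, and Gm9846 had 57.0 against 4.93 for Rps27. The order was the reverse for Gm10268 (20.8 against 69.3 RPKM for Rpl17), Gm10073 (13.0 against 74.4 for Rplp1) and Gm2000 (11.9 against 47.6 for Rpl35). Outside this family, Gm10566 had 20.5 RPKM against 0.454 for Gapdh, with 98.5% identity over its whole transcript, while Gm5514 had 15.9 against 623 for Ldhb. Gm5434 and its partner moved in opposite directions. It rose by 1.66 on the log2 scale while its partner Ube2f, at 93.1% identity, fell by 0.58 (adjusted p = 0.00553).

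**Figure D3:**
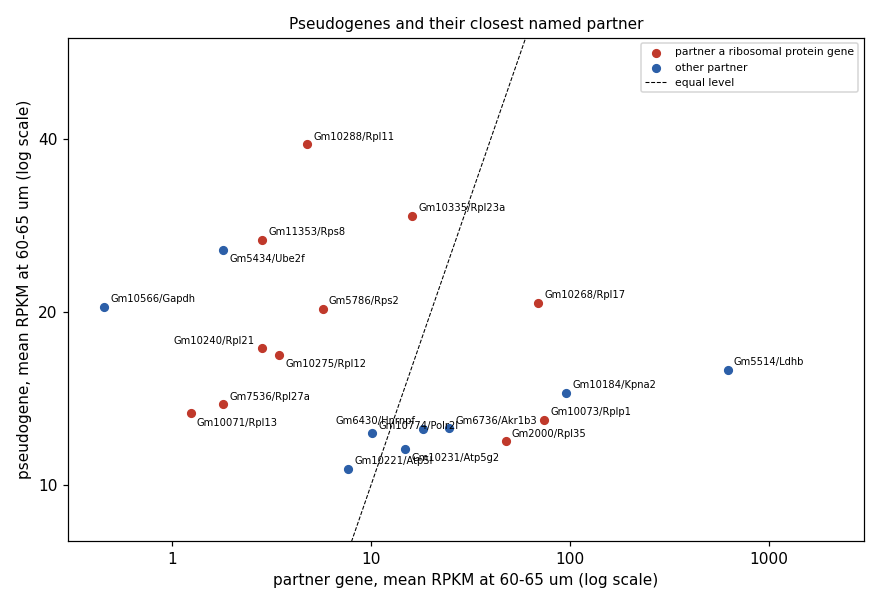
Mean RPKM at 60-65 µm of each pseudogene with a named partner (vertical, log scale) against that partner (horizontal, log scale), each point labelled pseudogene/partner. Points left of the dashed line, where the levels are equal, are pseudogenes above their partner, such as Gm10566 at 20.5 against 0.454 RPKM. The pseudogenes were chosen by their level at 60-65 µm and the partners were not.

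Shared sequence also joined genes that are not typed as pseudogenes. Gm15758, Gm11261, Gm11815 and Gm11851 matched one another at 90.8% to 95.6% identity, and these 4 together with the unmatched Gm11678 and Gm12521 matched a transcript of Xdh at 88.1% to 96.4%. All 6 fell, by 0.39 to 0.69 on the log2 scale from 10-30 to 50-55 µm, as did Xdh by 0.71 (adjusted p = 0.00199). Without 50-55 µm library A, Gm11815 no longer passed the threshold (adjusted p = 0.075). Gm10553 lies beside A530040E14Rik on chromosome 1 and matched it at 98.7% identity over its whole transcript. It had the widest spread between duplicates at every size, with 10.2 and 57.5 RPKM at 10-30 µm, 19.95 and 122 at 40-45 µm, 64.9 and 31.5 at 50-55 µm and 24.6 and 12.5 at 60-65 µm. Its duplicates differed by 2.49 on the log2 scale at 10-30 µm and by 2.62 at 40-45 µm. The change from 10-30 to 50-55 µm was 0.97 (adjusted p = 0.441), and its direction turned without 10-30 µm library A. A530040E14Rik had 320 and 244 RPKM at 40-45 µm and 247 and 223 at 50-55 µm, classes that overlapped (adjusted p = 0.322 for the step), and was higher at 50-55 than at 10-30 µm by 0.65 ± 0.17 (adjusted p = 0.0186), a call lost without 10-30 µm library B (adjusted p = 0.0678), 50-55 µm library A (0.107) or 50-55 µm library B (0.0543).

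Comparisons with 60-65 µm and GV oocytes are descriptions, since the former chose the genes and the latter is 1 column. From 10-30 to 60-65 µm, 28 of the 131 genes were at least 2-fold higher and 10 at least 2-fold lower, against 12.7% and 3.67% of all 1881 genes of these chromosomes with at least 10 RPKM at 60-65 µm. From 60-65 µm to GV, 1 was at least 1.5-fold higher and 2 at least 1.5-fold lower, against 0.372% and 0.797% of the same genes. The highest ratio of GV to 60-65 µm was in Gm7919, at 29.3 against 15.2 and 14.9 RPKM. It was followed by Gm4745 (1.35-fold, GV over 60-65 µm), 4931428L18Rik (1.35-fold), Gm2104 (1.34-fold) and Gm13023 (1.33-fold), all of which had also risen from 10-30 to 50-55 µm. The lowest ratios were in Gm10566 (12.2 against 19.5 and 21.4 RPKM), Gm10553 (11.6 against 24.6 and 12.5), Gm10073 (9.16 against 12.5 and 13.5), 4632415K11Rik (7.82 against 10.6 and 11.5) and A530040E14Rik (141 against 175 and 203).

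Methylation over the gene bodies at 60-65 µm was compared next, as the mean percent of CpG positions with at least 5 PBAT reads. It could be measured in 89 of the 131 genes, with a median of 22.4% (quartiles 12.8% and 36.0%), and 6 genes reached 50% (6.74%, against 7.48% of the other genes of at least 10 RPKM, 8.62% of placeholder genes below it and 9.03% of all genes). The 1711 measured genes of other symbols with at least 10 RPKM had a median of 25.7%, the 3862 placeholder genes below 10 RPKM one of 9.52%, and all 20144 measured genes one of 15.6%. The 89 genes were shorter than those of other symbols, with a median length of 12929 against 21095 bp. Among genes of at least 4 kb the medians were 25.8% (70 genes) and 27.7% (1534 genes). Under 4 kb, 19 of the genes had a median of 12.6%. Across the 89, the rank correlation of body methylation was 0.40 with gene length and -0.06 with the 60-65 µm level, as a description over genes that share 1 library. All 89 were chosen for at least 10 RPKM at 60-65 µm, so the correlation with level does not cover lower levels. Leaving out the first 2 kb of each gene, 26 of 68 measured genes reached 50% (38.2%), against 41.3% of 1464 other genes of at least 10 RPKM and 29.4% of all 16969 measured genes.

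The highest body methylation was in 4732465J04Rik, a long non-coding RNA at 163 and 166 RPKM, with 65.7% over 11 positions. It was followed by 2010002M12Rik (Ifit1bl2) with 63.6% over 59 positions, 4930432K21Rik with 55.9% over 85, Gm11985 with 55.7% (14 positions) and 7420461P10Rik (Myocos) with 51.9% over 52. Their expression had no common course: 7420461P10Rik rose by 2.03 on the log2 scale to 50-55 µm and 2010002M12Rik by 1.01, while Gm11985 fell. The rise of 4930432K21Rik was 0.30 (adjusted p = 0.046) and was lost without any 1 of the 6 libraries (adjusted p = 0.0558 to 0.30). The lowest was Gm10071 with 3.21% over 13 positions, then 2410004A20Rik with 4.6% over 90, Gm813 with 5.84% over 11, Gm20538 with 6.14% over 76 and 7420426K07Rik with 6.17% over 16. These include genes of high level: 2410004A20Rik had 150 and 153 RPKM at 60-65 µm and Gm813 had 144 and 140. Among measured genes of at least 4 kb, the median was 30.4% in the 37 that rose from 10-30 to 50-55 µm, 17.2% in the 7 that fell and 24.5% in the 26 that did neither. Median lengths stood in the same order, at 20690, 11254 and 17372 bp, and the difference in methylation was not tested.

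**Figure D4:**
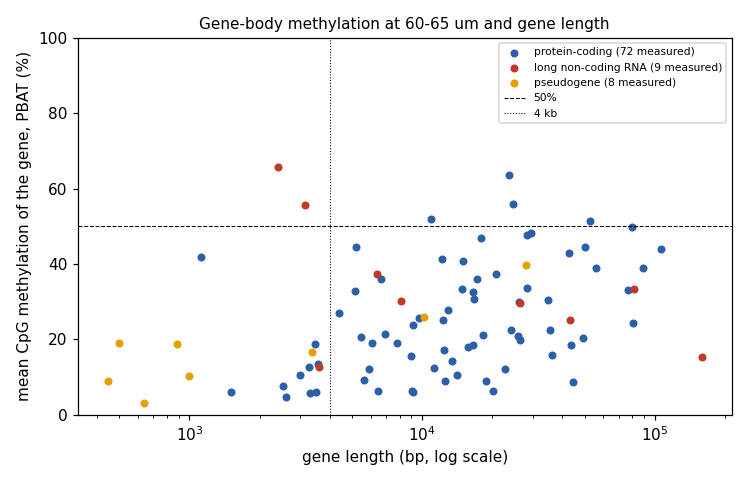
Mean CpG methylation of the gene body in the 60-65 µm PBAT library (vertical, percent) against gene length (horizontal, log scale) for the 89 measured genes, coloured by gene type. The dashed line marks 50%, which 6 genes reach, and most genes left of the dotted line at 4 kb lie below 20%.

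Start sites were mostly unmethylated. In windows of 500 bp on each side of the start that the table gives, 81 genes were measured, with a median of 4.17% against 3.14% in the other genes of at least 10 RPKM and 3.43% over all genes of chromosomes 1-19. 4 genes reached 50% (4.94%), against 9 of 1592 other genes of at least 10 RPKM (0.565%), 6.60% of 3062 placeholder genes below 10 RPKM and 2.47% of all genes. With at least 10 reads per position 0 of 46 measured genes did. They were the pseudogene Gm6736 (71.2%, 8 positions, 48 calls), the pseudogene Gm10268 (59.2%, 7 positions, 41 calls), Gm11815 (54.2%, 11 positions, 69 calls) and Gm11985 (50.7%, 5 positions, 27 calls). The fifth highest, E330021D16Rik, had 46.1% over 34 positions and 279 calls. The start sites differed between sources. RefSeq placed the start of 12 of 75 genes more than 500 bp from that of the table, among them Gm11985 (2279 bp upstream), where the 5 measured positions were at 0%, and E330021D16Rik (13739 bp upstream), where fewer than 5 were measured. At RefSeq starts the median of 57 genes was 3.65% and 1 gene reached 50%, 4732465J04Rik, with 69.5% over 20 positions at a start 19438 bp upstream of that in the table.

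The timing of methylation was followed in the RRBS libraries, in which 56 genes had at least 5 positions of at least 5 reads in all 6. The median over them was 0.92% and 0.54% at 40-45 µm, 1.61% and 1.89% at 50-55 µm, and 1.42% and 1.93% at 60-65 µm. Over 1392 other genes of at least 10 RPKM it was 0.93% and 0.67%, then 1.68% and 2.09%, then 2.83% and 2.80%. The medians depended on the read minimum, and with at least 1 read per position those of the genes described here (62 measured) averaged 1.28%, 8.28% and 3.83% over the 2 libraries of each class in turn. RRBS reads CpG-rich sequence, which includes many start sites. In 28 of the 56 genes (50.0%) both 60-65 µm libraries lay above both 40-45 µm libraries, against 54.5% of all 13523 genes measured in the same way and 60.2% of the 1392 other genes of at least 10 RPKM. This was not tested here. An exact permutation test of 2 against 2 libraries gives a two-sided p of 0.333 at the smallest. Genes of at least 10% numbered 0 and 1 at 40-45 µm, 5 and 10 at 50-55 µm, and 11 and 13 at 60-65 µm (19.6% and 23.2% of the 56), against 26.4% and 27.3% of 1392 other genes of at least 10 RPKM at 60-65 µm.

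10 genes had at least 10% in both 60-65 µm libraries, and none of them exceeded 5.40% at 40-45 µm. All 10 were protein-coding, as were 55 of the 56 measured genes, and 5 of the 10 had also reached 10% in both 50-55 µm libraries. 4632415K11Rik (Meak7) had 5.40% and 0.51% at 40-45 µm, 23.4% and 17.0% at 50-55 µm, and 39.9% and 59.0% at 60-65 µm. 2410001C21Rik (Rtf2) had 4.49% and 1.51%, then 12.8% and 39.5%, then 34.0% and 42.7%. E330021D16Rik had 4.28% and 3.84%, then 9.25% and 16.8%, then 25.4% and 32.2%. In all 3 genes the 60-65 µm libraries lay above those of 40-45 µm, which the choice of genes by their 60-65 µm values favours. The 50-55 µm libraries overlapped with 60-65 µm in 2410001C21Rik. Both directions of transcript change were among the 10 genes. E330021D16Rik rose between 10-30 and 50-55 µm, and 4632415K11Rik changed by -0.35 ± 0.10 (adjusted p = 0.027), a call lost without 10-30 µm library B (adjusted p = 0.0664), 50-55 µm library A (0.195) or 50-55 µm library B (0.0974).

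**Figure D5:**
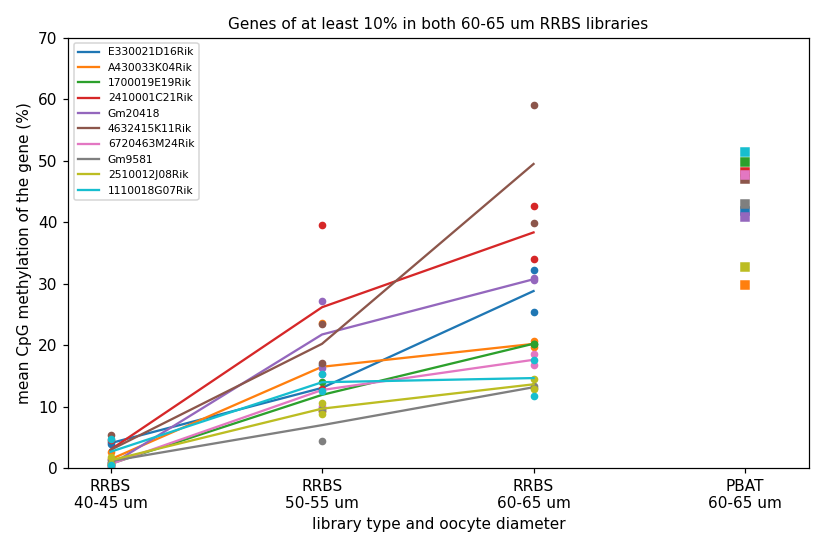
Mean CpG methylation (percent) of the 10 genes with at least 10% in both 60-65 µm RRBS libraries, by library type and oocyte diameter. Circles are RRBS libraries, lines join class means and squares are the 60-65 µm PBAT gene-body values; all 10 genes lie at or below 5.40% at 40-45 µm.

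In position, 24 of the 131 genes overlapped another annotated gene on the same strand, and 29 overlapped a gene of the table on the opposite strand. The median distance to the nearest gene that did not overlap was 11210 bp. In 27 cases that neighbour had at least 10 RPKM at 60-65 µm and in 54 it had under 0.5 RPKM. The nearest neighbour of Gm16211, Zfp534, had 1.56 RPKM, and that of Gm15698, Coil, had 3.13 RPKM.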

How the data were processed

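The authors made strand-specific RNA libraries, trimmed reads with Trim Galore 0.2.8, aligned them to GRCm38 with TopHat2 2.0.9 (1 alignment per read) and deposited 1 table of RPKM per gene. Their methods name Cufflinks for FPKM and SeqMonk for analysis; which tool and annotation made the RPKM table, and whether its counting used strand, is not given in the sources used here. Low values of 677 single-exon genes came in whole reads (99.3% to 100% whole within 0.05 of a read, below 50 reads), which places depth at 99370000 to 198300000 counted reads per library. For methylation the authors trimmed with Trim Galore 0.3.5, aligned with Bismark (0.14.0 for RRBS, 0.10.0 for PBAT) and deposited the percent methylation and the counts of methylated and unmethylated calls per position. PBAT held 99039028 calls at 29487581 positions (3.36 a position), and RRBS libraries 30000113 to 57319823 calls (22.9 to 58.9 a position).

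Here RPKM values were scaled by a trimmed mean of ratios and log2(RPKM + 0.1) was fitted with limma in the 6 libraries from 10 to 55 µm, keeping genes that reached 0.5 RPKM in any 2 libraries, with Benjamini-Hochberg adjustment over all genes tested; fold changes on this scale understate low genes. The fit was tested on simulated data. Body methylation needed 10 positions and start sites 5. Transcript likeness used BLAST+ against GENCODE M21, with an E-value of 1e-20. Named genes were the 10 highest, the 3 genes on each side of the threshold and the run on chromosome 4. Also named were the 5 largest rises and falls to 50-55 µm, of genes that passed the test with no overlap between the 2 classes. The 5 highest and lowest by body methylation, the 5 largest changes to GV and the 5 highest start sites were named too. Other genes named were chosen after their values were seen. Protein likeness was not analysed here. The genes and lists were chosen with earlier results of these data known. Alternatives were other pseudocounts, scaling, filters, library sets, read minimums and windows.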

Additional observations from a re-analysis of the deposited data

How the results depend on the processing

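From 10-30 to 50-55 µm, the 57 rises ranged from 42 to 56 and the 31 falls from 19 to 33 over the 6 fits that left out 1 library, and the other pseudocounts, filters, library sets and scaling moved neither count by over 1.5 times. The step counts depended on the processing. From 10-30 to 40-45 µm, leaving out 1 library gave 10 to 35 rises (39 in all) and 0 to 14 falls (3 in all), and the falls were 12 without scaling, 1 without a filter on low values and 8 with all 8 libraries. From 40-45 to 50-55 µm, leaving out 1 library gave 0 to 11 rises (7 in all) and 0 to 13 falls (4 in all). There, no filter or a filter of 2 RPKM gave 0 and 0, all 8 libraries gave 15 and 11, a pseudocount of 0.01 gave 0 falls and no scaling gave 1 fall. Where a size class was left with 1 library, that library was assumed to vary like the others.

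With the library letter as a replicate block, the counts were 66 rises and 18 falls from 10-30 to 40-45 µm, 37 and 33 from 40-45 to 50-55 µm, and 66 and 40 from 10-30 to 50-55 µm, and 2410004A20Rik passed the threshold (adjusted p = 0.00986). The differences between A and B correlated between classes at 0.60 to 0.67 below 60 µm and at -0.24 to 0.09 with 60-65 µm, over 10321 genes. The labels do not say that a letter marks a shared batch, and there are 2 letters only.

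A threshold of 5 or 20 RPKM would have chosen 250 or 58 genes. Body methylation of at least 50% was found in 10 of 126 measured genes with at least 1 read per position and in 26 of 68 without the first 2 kb, against 6 of 89. Start-site methylation of at least 50% was found in 7 of 124 genes with at least 1 read, 0 of 46 with at least 10 reads, 2 of 58 in a window from 250 bp before to 50 bp after the start and, chosen after seeing the data, 1 of 57 at RefSeq starts, against 4 of 81. With at least 1 read per position, the median RRBS methylation was 1.28% at 40-45 µm, 8.28% at 50-55 µm and 3.83% at 60-65 µm, against 0.73%, 1.75% and 1.67%. With at least 10 reads it was 1.42% at 50-55 µm and 1.12% at 60-65 µm. Also chosen after seeing the data, counting only genes without a close copy elsewhere gave 1 fall from 10-30 to 40-45 µm, 2 rises and 2 falls from 40-45 to 50-55 µm and 9 falls from 10-30 to 50-55 µm.

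Of 481 alternatives for the named genes, 449 kept direction and side of the threshold, 21 lost and 4 gained a call and 7 reversed, all 7 in genes whose change had not passed the test. Leaving out 1 library gave log2 changes from 10-30 to 50-55 µm of -0.19 to 0.36 in 4732465J04Rik, -0.23 to 2.18 in Gm10553, -0.075 to 0.32 in Gm10566, -0.12 to 0.42 in Gm16211 and -0.16 to 0.13 in Gm20483. The cause of these differences was not tested. PBAT held 3.36 calls a position, and the 4 start-site values of at least 50% rest on 27 to 69 calls.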
